A study of Mus musculus with 4 samples.

Results

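Proteasome subunits and assembly factors were taken as the genes whose symbol starts with Psm, followed by one letter from a to g and a number. The rule found 48 of the 35857 genes listed, spread over 16 chromosomes, and each is accounted for here. They were sorted into 9 groups by function: 7 alpha-ring and 7 beta-ring subunits of the constitutive core, 5 inducible or tissue-specific core subunits, 6 ATPases, 3 other subunits of the base, 8 lid subunits, 5 activators and inhibitors, 4 chaperones of core assembly and 3 chaperones of base assembly. The cells were neural stem cells that had been taken from the cortex of embryonic C57BL/6 mouse brains, and RNA was collected 24 hr after glial differentiation had been started, a state named glial progenitors in the labels. Libraries of Qk-/- cells (labelled Qk_KO, 2 libraries) were compared with libraries of wild type cells (control, 2 libraries), to ask how loss of Quaking, an RNA-binding protein of glia, changed the transcriptome. How Qk was removed, how many animals were used and whether each library had its own culture is not stated in the labels, so p-values measure only the spread between these libraries, which may be technical in part. One library, Qk_KO replicate 1, differed from the other 3 in sex-linked transcripts: Xist, expressed from an inactive X chromosome, stood at 0.04 and 62.5 TPM in Qk_KO and 62.2 and 57.6 TPM in control, and the Y-linked Eif2s3y at 35.4 and 0 TPM in Qk_KO and at 0 in both control libraries. The spread in Qk_KO therefore includes a difference between male and female cells, whose part in the proteasome values was not tested.

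The proteasome is the protease that degrades most short-lived proteins of the cytosol and nucleus after they have been tagged with ubiquitin. Its barrel-shaped core is built of stacked alpha and beta rings with the catalytic sites inside, and a regulatory particle at its ends recognises, unfolds and feeds in the substrate with a ring of ATPases (the base) and a set of scaffold subunits and a deubiquitinase (the lid). Other activators can cap the core in place of the regulatory particle, interferons exchange the catalytic subunits for inducible ones, and dedicated chaperones assemble both parts. When proteasome activity is short, the transcription factor Nfe2l1 raises most subunit genes together.

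Transcripts of the regulatory particle lay slightly lower in Qk_KO in each of its 17 subunits that the name rule covers. The 4 core assembly chaperones also had log2 fold changes below 0, and the activators lay on either side of it. The inducible subunits and base chaperones tested had log2 fold changes above 0. Those of Psmb10 and the base chaperones were only 0.034 to 0.058, with overlapping groups. The median log2 fold change (Qk_KO minus control) was -0.22 over the regulatory particle, -0.12 over the constitutive core and 0.052 over the other members, and the difference between these medians was not tested. Abundance was given as TPM, reads divided by transcript length and scaled to the same total in each library, so levels of different subunits can be set side by side. The 48 genes together made up 1.01% and 1.04% of all transcripts in the Qk_KO libraries, against 1.13% and 1.17% in the control libraries. No member passed the test across all genes. Of the 46 members tested, 0 had an adjusted p under 0.05 (limma, Benjamini-Hochberg, 2 against 2 libraries on log2(TPM + 1)), where 3.24% of the 13260 genes tested did. At an unadjusted p under 0.05, 13 members were lower and 1 was higher, next to 12.6% of all genes tested for lower and 15.8% for higher. For 26 of the 46 members the Qk_KO pair lay wholly below the control pair, and for 4 wholly above it, against 27.5% and 33.6% of all genes tested. These 26 were 17 of 17 subunits of the regulatory particle, 7 of 14 of the constitutive core and 2 of the 15 other members tested. Members of 1 complex are measured in the same libraries, so these counts are not independent observations.

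The sizes were small. Log2 fold changes of the members ran from -0.55 to 0.57 with a median of -0.15, while the median of all genes tested was 0.036. Below 0 lay 36 of the 46 members, or 78.3%, and 45.6% of all genes tested. The median stayed below 0 under each of the 2 rescalings tried, at -0.18 with median-ratio scaling and -0.16 with quantile normalization. Members also varied little within a group of libraries. Their median absolute difference on the log2 scale was 0.0998 between the Qk_KO libraries, 0.0926 between the control libraries and 0.176 between the group means, where all genes tested had 0.158, 0.144 and 0.231. Without Qk_KO replicate 1 the median of the members was -0.12 and 33 of 46 lay below 0, and the medians of the ATPases and the lid were -0.27 and -0.26. In bulk RNA such as this, fewer cells of a type and less RNA per cell cannot be told apart.

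**Figure D1:**
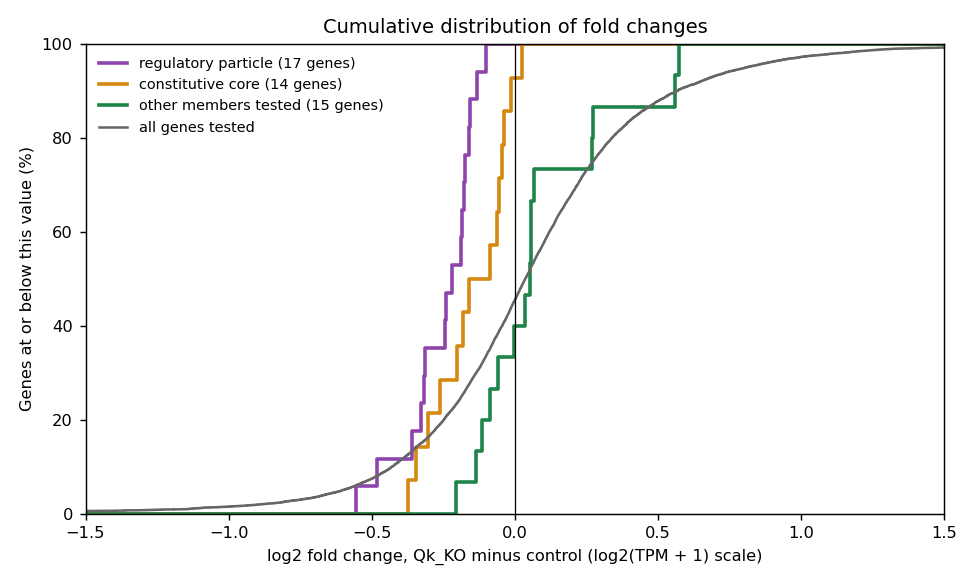
Share of genes (y axis, %) at or below each log2 fold change (x axis, Qk_KO minus control) for the 17 regulatory-particle genes, the 14 constitutive core genes, the 15 other members tested and all 13260 genes tested. The regulatory particle lies wholly below 0, from -0.55 to -0.10, and the 15 other members, from -0.21 to 0.57, have their median at 0.052.

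Facts of the libraries bear on these values. Qk itself stood at 36.1 and 43.7 TPM in the Qk_KO libraries, against 208 and 215 TPM in the control libraries, in the direction of the labels, and its log2 fold change was -2.38 (SE 0.12, adjusted p = 0.00708, limma, Benjamini-Hochberg). It missed the threshold without control replicate 1 (adjusted p = 0.0554, limma), without control replicate 2 (0.0772) and when all genes were kept whatever their level (0.108), at a fold change of the same size. The 9 markers of neural stem cells and radial glia were present in all 4 libraries and summed to 6358 and 6170.4 TPM in Qk_KO and 6207 and 6159 TPM in control. The sums were dominated by Vim and Fabp7, with log2 fold changes of 0.27 and -0.13, and so say little of the other markers. Among these Pax6 rose and Slc1a3 fell (log2 fold changes 1.15 and -1.53), and Prom1 was higher without overlap or a call (0.80). The 5 astrocyte markers summed to 318 and 234 TPM in Qk_KO and 122 and 119.9 TPM in control, and Aqp4 rose (log2 fold change 2.63). Aldh1l1, at 229 and 108 TPM in Qk_KO and 52.0 and 32.9 TPM in control, was also higher, without a call. S100b went the other way without a call, at 0.67 and 1.81 TPM in Qk_KO and 5.04 and 18.2 TPM in control. Gfap and Slc1a2 overlapped. The 6 markers of the oligodendrocyte lineage overlapped in sum, at 893 and 1089.6 TPM in Qk_KO and 1165 and 963 TPM in control, with a median log2 fold change of -1.22, and Pdgfra fell (-2.29). The 18 microglia and macrophage markers summed to 46.5 and 39.5 TPM in the Qk_KO libraries and 91.8 and 83.7 TPM in the control libraries, with all 12 markers tested at lower values in Qk_KO and P2ry12 at 0 to 0.04 TPM. The 11 neuron markers summed to 1183 and 1255 TPM in the Qk_KO libraries and 869 and 643 TPM in the control libraries. Tubb3 and Gap43, the most abundant of them, were higher without a call (log2 fold changes 1.25 and 0.45). Map2, Syt1, Dcx, Elavl3, Elavl4 and Stmn2 overlapped, and the log2 fold change of Stmn2 was -0.37. Of the neuron markers Snap25 and Ina rose (log2 fold changes 1.12 and 2.00), and each of these 6 marker calls was lost when either control library was left out, with adjusted p from 0.00559 to 0.249 over all alternatives (limma). The part of these cell types in the proteasome values was not tested. Depth is unknown, since TPM does not keep it. Of all genes tested, 430 were called, 242 higher and 188 lower, but 345 higher and 443 lower after removal of the GC trend in each library.

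The 2 lowest log2 fold changes among the members were those of the lid genes Psmd11 and Psmd12, while the lid as a group had a median of -0.21 and the ATPases one of -0.27. The lid carries the deubiquitinase that cuts ubiquitin chains off the substrate and connects the base with the core. Psmd11, which encodes the scaffold subunit Rpn6 that clamps the regulatory particle to the core, had 129 and 115 TPM in the Qk_KO libraries, against 171 and 188 TPM in the control libraries. Its groups did not overlap, the lowest control value being well above the highest Qk_KO value. Means were 122 ± 9.63 TPM in Qk_KO and 179 ± 11.5 TPM in control (SD, n = 2 each). The log2 fold change was -0.55 (SE 0.10, 95% interval -0.82 to -0.29), and its adjusted p of 0.0531 (limma with Benjamini-Hochberg) was just outside the threshold of 0.05. Psmd11 passed when genes were kept from a mean of 5 TPM (adjusted p = 0.0484), with the replicate number as a block (0.0472) and with small RNA genes left out (0.0436), and over the 15 alternatives tried its adjusted p ranged from 0.0436 to 0.294 (limma, Benjamini-Hochberg). The gene lies at chromosome 11, 80428615 to 80473248 on the plus strand (GENCODE M21, GRCm38).

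Psmd12 encodes Rpn5, a neighbouring scaffold subunit of the lid, and lies on the same chromosome at 107479484 to 107504362. It had 131 and 111 TPM in the Qk_KO libraries, against 159 and 179.8 TPM in the control libraries, again without overlap (log2 fold change -0.48, SE 0.12, adjusted p = 0.0798, limma, Benjamini-Hochberg). Psmd7, the inactive partner of the deubiquitinase, had 259 and 276 TPM in the Qk_KO libraries, against 316 and 351 TPM in the control libraries (log2 fold change -0.31). Psmd14, the deubiquitinase itself, was the least abundant of the 8 lid genes and stood at 100.3 and 111 TPM in the Qk_KO libraries, against 115 and 127 TPM in the control libraries. Psmd3, the most abundant of the 8, had 369.6 and 398 TPM in the Qk_KO libraries, against 443 and 429 TPM in the control libraries. Psmd6 (log2 fold change -0.24), Psmd8 (-0.17) and Psmd13 (-0.16), the remaining scaffold subunits, also had both Qk_KO values below both control values. This held for 8 of 8 lid genes of the name rule, against 27.5% of all genes tested. Summed over the lid, abundance was 1659.9 and 1648 TPM in the Qk_KO libraries, against 1946 and 2018 TPM in the control libraries, that is 83.5% of control.

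Proportions within the lid were read in each library. Psmd11 stood at 128% and 103% of Psmd14 in the Qk_KO libraries and at 149% and 148% in the control libraries, and Psmd12 at 131% and 100% of Psmd14 in the Qk_KO libraries and 139% and 142% in the control libraries. Both ratios were thus lower in each Qk_KO library, and most so in Qk_KO replicate 2. An exact permutation test of 2 against 2 libraries cannot give a p below 0.333, so these ratios are given without a test.

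The 6 ATPases form the unfolding ring of the base. All 6 genes had both Qk_KO values below both control values, against 27.5% of all genes tested. Psmc4, the most abundant of them and the ATPase bound by the chaperone gankyrin during assembly, had 440.1 and 466 TPM in the Qk_KO libraries, against 560.2 and 603 TPM in the control libraries. Its log2 fold change was -0.36 (SE 0.09, 95% interval -0.59 to -0.13, adjusted p = 0.0818, limma, Benjamini-Hochberg), and it passed only with the GC trend removed (adjusted p = 0.0497, log2 fold change -0.48), the range over the 15 alternatives being 0.0497 to 0.397. Psmc6, the least abundant ATPase gene, had 107 and 106 TPM in the Qk_KO libraries, against 128 and 140.0 TPM in the control libraries, and the Qk_KO values lay close together. Psmc2 had 142 and 129 TPM in the Qk_KO libraries, against 164 and 174 TPM in the control libraries. The smallest differences were those of Psmc3, at 424 and 448 TPM in the Qk_KO libraries, against 477 and 479 TPM in the control libraries, and Psmc5, at 325 and 329 TPM in the Qk_KO libraries, against 356 and 346 TPM in the control libraries, with log2 fold changes of -0.13 and -0.10. Psmc1, at 365 and 365 TPM in the Qk_KO libraries against 429 and 423 TPM in the control libraries, lay between these. The ring as a whole summed to 1802 and 1842 TPM in Qk_KO and 2113 and 2165 TPM in control, or 85.2% of control.

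The base also holds the large scaffold subunits Psmd1 and Psmd2, which dock ubiquitin receptors, and the ubiquitin receptor Psmd4. Psmd4 was the most abundant, at 430.5 and 459 TPM in the Qk_KO libraries, against 502 and 504 TPM in the control libraries. Psmd2 had 257 and 292 TPM in the Qk_KO libraries, against 304 and 308 TPM in the control libraries, and Psmd1 had 148 and 158 TPM in the Qk_KO libraries, against 179.6 and 184 TPM in the control libraries. None of the 3 overlapped between the groups, where 27.5% of all genes tested were lower without overlap. For Psmd2, however, the spread between the Qk_KO libraries was as wide as the distance between the group means. Its log2 fold change of -0.16 had a 95% interval of -0.41 to 0.092. The largest of the 3 log2 fold changes was -0.25 for Psmd1 (adjusted p = 0.149, limma, Benjamini-Hochberg).

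**Figure D2:**
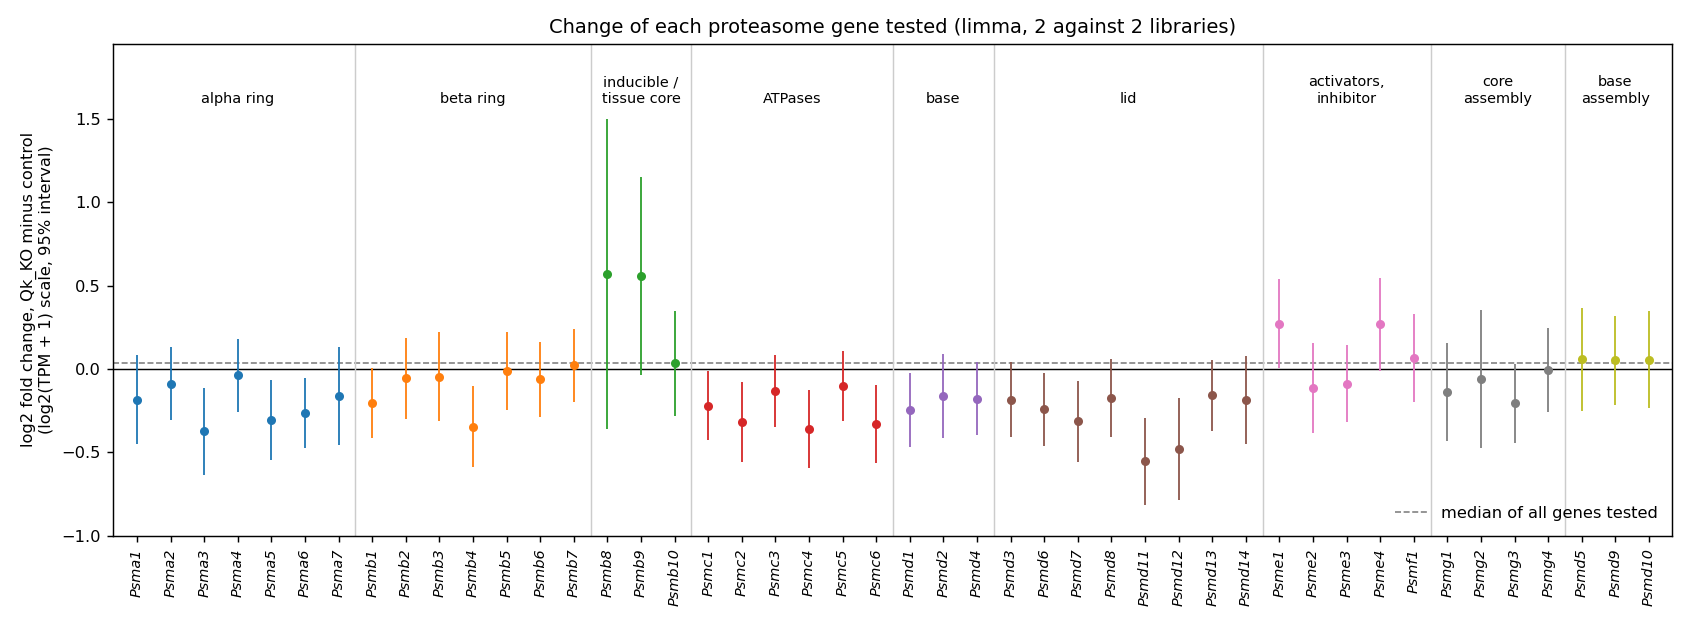
Log2 fold change (Qk_KO minus control, y axis) of each of the 46 members tested, with its 95% interval from limma, ordered along the x axis by function. Each of the 17 ATPase, base and lid genes lies below 0, with Psmd11 lowest at -0.55. In the beta ring 6 of 7 genes lie below 0, down to -0.34. The activators lie on either side of 0, the 4 core assembly chaperones below it and the 3 base chaperones just above it. The intervals of Psmb8 and Psmb9 are the widest.

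In the core, the gate of the alpha ring controls entry of substrates. Of its genes 5 of 7, and of the beta ring 2 of 7, had the Qk_KO pair below the control pair. Of all genes tested 27.5% did, and the difference between the rings was not tested. All 7 alpha genes had a log2 fold change below 0 (median -0.18), 5 of them without overlap. Psma3 had 185 and 175 TPM in the Qk_KO libraries, against 218 and 249.9 TPM in the control libraries, the largest difference of the ring (log2 fold change -0.37, adjusted p = 0.0962, limma, Benjamini-Hochberg). Psma5 followed with 159 and 168 TPM in the Qk_KO libraries, against 193 and 211 TPM in the control libraries, and Psma6 with 272 and 272 TPM in the Qk_KO libraries, against 322 and 331 TPM in the control libraries. Psma2, the most abundant alpha subunit, had 361 and 385 TPM in the Qk_KO libraries, against 395 and 398 TPM in the control libraries, a small distance without overlap. Psma1 had 189 and 178 TPM in the Qk_KO libraries, against 194 and 223 TPM in the control libraries and did not overlap either, whereas Psma4, at 297 and 293 TPM in the Qk_KO libraries, against 294 and 312 TPM in the control libraries, and Psma7, at 242 and 207 TPM in the Qk_KO libraries, against 265 and 237 TPM in the control libraries, overlapped. The 7 alpha genes summed to 1706 and 1678 TPM in Qk_KO and 1881 and 1964 TPM in control.

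The beta ring carries the catalytic sites. Its 3 constitutive catalytic subunits had fold changes near 0, and their 95% intervals of the log2 fold change lay within -0.29 to 0.24. Psmb5, with the chymotrypsin-like site, had 384 and 421 TPM in the Qk_KO libraries, against 411 and 399.6 TPM in the control libraries (log2 fold change -0.012, 95% interval -0.24 to 0.22). Psmb6, with the caspase-like site, had 477 and 514 TPM in the Qk_KO libraries, against 520.0 and 514 TPM in the control libraries (95% interval -0.29 to 0.16), and Psmb7, with the trypsin-like site, had 442 and 469.6 TPM in the Qk_KO libraries, against 452 and 444 TPM in the control libraries (95% interval -0.20 to 0.24). For all 3 the groups overlapped. The non-catalytic beta subunits were mixed. Psmb4 had 426 and 475 TPM in the Qk_KO libraries, against 561 and 583 TPM in the control libraries, without overlap (log2 fold change -0.34, adjusted p = 0.0967, limma, Benjamini-Hochberg), and Psmb1 had 431 and 438 TPM in the Qk_KO libraries, against 500.0 and 499.7 TPM in the control libraries, also without overlap. Psmb3, the most abundant of the 48 genes, had 654 and 718 TPM in the Qk_KO libraries, against 666 and 749.7 TPM in the control libraries, and Psmb2 had 285 and 321 TPM in the Qk_KO libraries, against 314 and 314 TPM in the control libraries, and both overlapped. The median log2 fold change of the ring was -0.054, and it was 0.023 without Qk_KO replicate 1, so its direction rested on that library.

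Balance between the parts of the complex was read within each library. Mean TPM per lid gene was 46.9% and 43.0% of the mean per beta-ring gene in the Qk_KO libraries and 49.7% and 50.4% in the control libraries. For the ATPases the same share was 67.9% and 64.0% in Qk_KO and 72.0% and 72.1% in control. The alpha ring stood at 55.1% and 49.98% of the beta ring in Qk_KO and 54.9% and 56.0% in control. The first 2 shares were lower in both Qk_KO libraries and the third overlapped, though the Qk_KO libraries differed from each other by several percentage points in each. Subunits that occur in equal number in the complex were far from equal as transcripts: over the 31 constitutive genes mean TPM ran from 113 for Psmd14 to 697 for Psmb3, a 6.15-fold range within which the group differences are small.

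**Figure D3:**
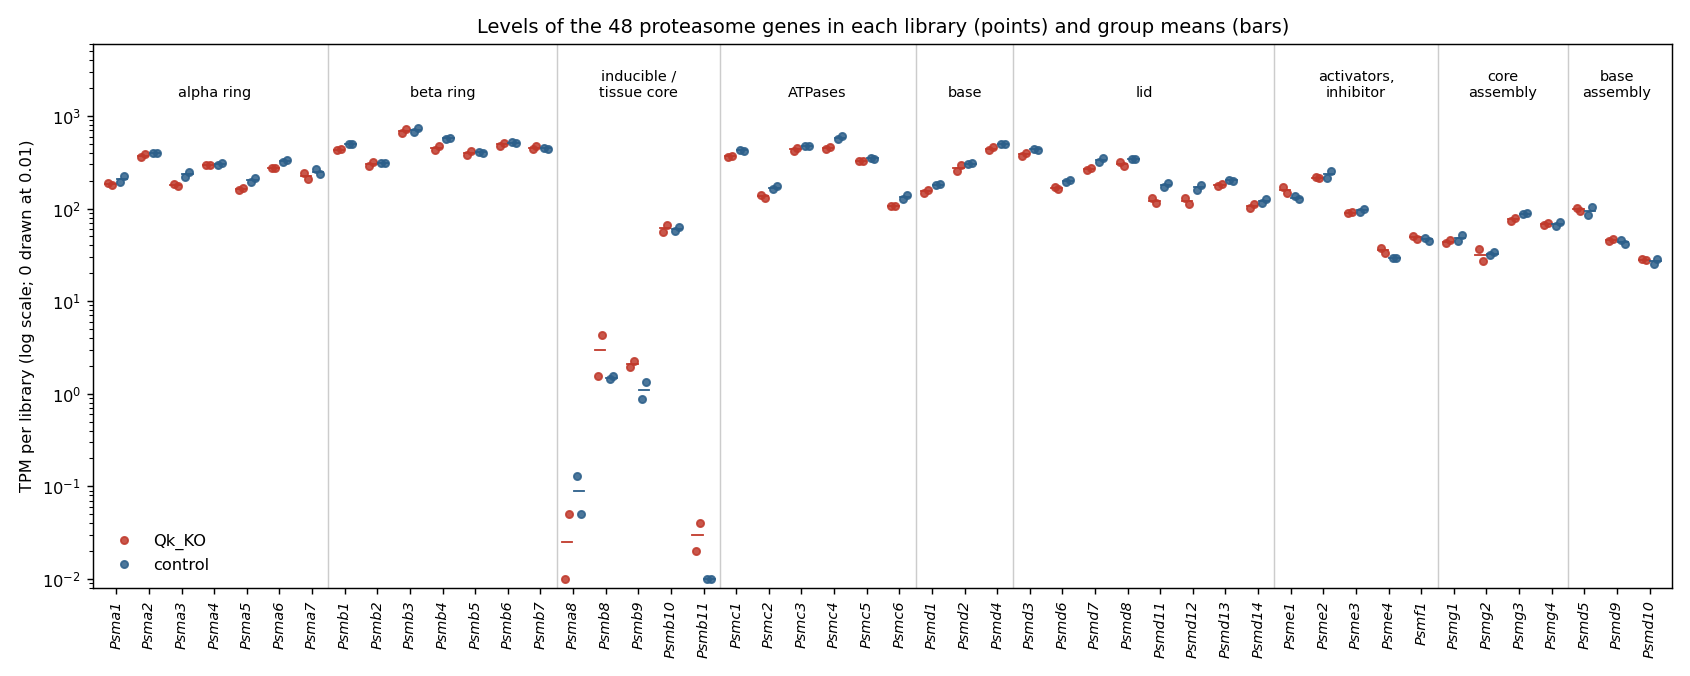
TPM (y axis, log scale, with 0 drawn at 0.01) of each of the 48 genes in each library, with short bars at the group means. Constitutive core and regulatory-particle genes sit between about 113 and 697 TPM on average, the assembly chaperones lower, and Psma8, Psmb8, Psmb9 and Psmb11 near or below a few TPM.

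**Figure D4:**
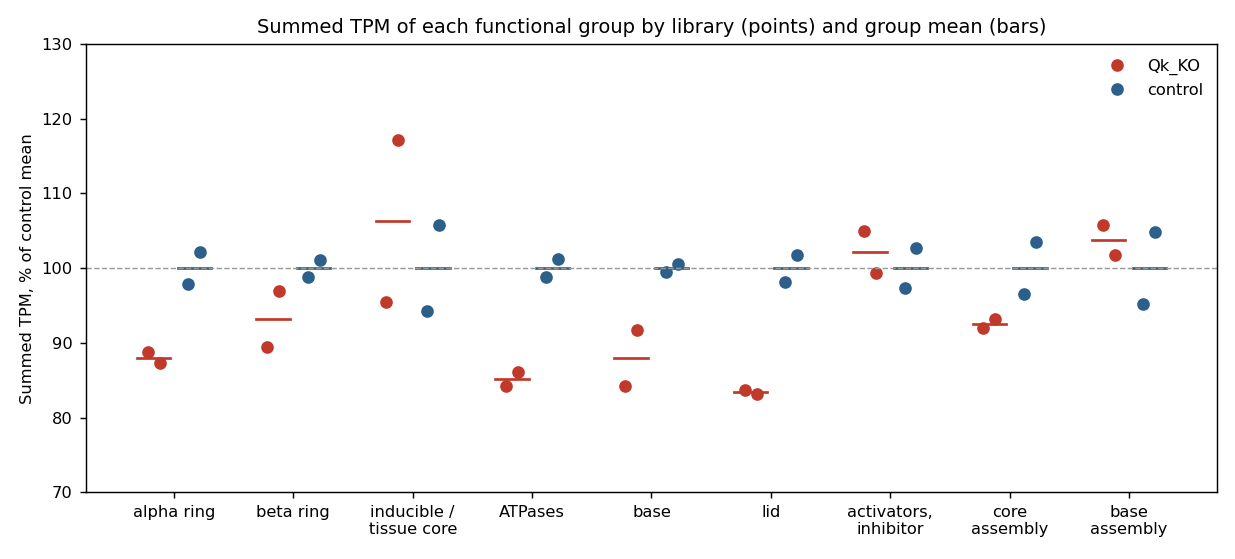
Summed TPM of each functional group in each library as a percentage of the control mean (y axis), with short lines at the group means. Lid, ATPases and alpha ring lie at 83.5%, 85.2% and 88.0% of control in Qk_KO, and the beta ring and core assembly at 93.2% and 92.6%. Activators and base assembly lie at 102% and 104%, and the y axis starts at 70%.

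The promoters of 6 core and regulatory-particle genes are shown because subunits of the regulatory particle lay lower together. Each sequence is the 250 bases before the RefSeq start (GRCm38.p6), written 5′ to 3′ along the gene's strand, and capitals mark matches to CGGAAG, the core of sites bound by ETS factors, or to TGACNNNGC (N is any base), the core of the antioxidant response element that Nfe2l1 and Nfe2l2 bind, on either strand. The windows are chr11:80428365-80428614 and chr11:107479278-107479527 (plus strand) for the genes with the largest differences, chr14:45329574-45329823 (plus strand) and chr14:14120946-14121195 (minus strand) for a further ATPase and lid gene, chr7:28050093-28050342 (minus strand), one of the regulatory-particle genes with neither motif, and chr14:54617996-54618245 (minus strand) for a catalytic gene whose groups overlapped.
Psmd11: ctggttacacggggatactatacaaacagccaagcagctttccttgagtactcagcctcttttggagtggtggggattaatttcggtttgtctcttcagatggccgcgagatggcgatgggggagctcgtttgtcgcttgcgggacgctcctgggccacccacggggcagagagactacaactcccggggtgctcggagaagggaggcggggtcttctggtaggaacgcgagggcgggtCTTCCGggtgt
Psmd12: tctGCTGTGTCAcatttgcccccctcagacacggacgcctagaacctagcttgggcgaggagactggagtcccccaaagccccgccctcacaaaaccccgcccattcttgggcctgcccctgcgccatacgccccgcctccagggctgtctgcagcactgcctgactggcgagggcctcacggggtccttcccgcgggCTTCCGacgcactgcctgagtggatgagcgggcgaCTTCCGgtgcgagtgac
Psmc6: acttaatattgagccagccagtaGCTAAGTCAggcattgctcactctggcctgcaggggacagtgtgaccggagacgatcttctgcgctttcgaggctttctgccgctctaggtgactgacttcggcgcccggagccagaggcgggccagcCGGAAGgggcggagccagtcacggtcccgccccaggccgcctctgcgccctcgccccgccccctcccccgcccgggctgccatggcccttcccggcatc
Psmd6: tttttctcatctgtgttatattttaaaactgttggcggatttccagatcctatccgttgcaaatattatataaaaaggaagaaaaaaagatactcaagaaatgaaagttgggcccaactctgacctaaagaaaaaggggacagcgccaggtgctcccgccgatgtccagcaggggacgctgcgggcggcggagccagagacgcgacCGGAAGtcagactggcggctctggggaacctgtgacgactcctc
Psmc4: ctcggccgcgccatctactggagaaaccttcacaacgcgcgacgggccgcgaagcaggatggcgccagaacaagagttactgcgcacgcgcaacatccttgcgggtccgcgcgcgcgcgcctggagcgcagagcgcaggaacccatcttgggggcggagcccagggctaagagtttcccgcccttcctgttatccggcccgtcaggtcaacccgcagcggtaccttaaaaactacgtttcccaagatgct
Psmb5: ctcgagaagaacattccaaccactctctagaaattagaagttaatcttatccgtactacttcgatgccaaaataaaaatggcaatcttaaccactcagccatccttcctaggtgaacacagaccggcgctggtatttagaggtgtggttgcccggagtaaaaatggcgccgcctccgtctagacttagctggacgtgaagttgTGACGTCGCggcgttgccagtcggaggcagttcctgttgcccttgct

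A window was found for 40 of the 48 members (matched by gene number, a gene with 2 windows counted once), of which 34 run into an annotated transcript of the gene (GENCODE M21), and none was given for Psma8, Psmb1, Psmb2, Psmb7, Psmc3, Psmd3, Psmd7 and Psmg2. CGGAAG occurred in 19 of these 40 genes, namely in 12 of 14 regulatory-particle genes, 3 of 11 constitutive core genes and 4 of 15 other members. The same letters occurred in 15.3% of all 27025 genes with a window and in 28.6% of those among the genes tested. In Psmd11 the match starts 11 bases before the RefSeq start, and Psmd12 has matches 52 and 17 bases before it. GENCODE M21 starts Psmd12 earlier, at 107479484, so its window runs into the gene and the match at 17 bases lies inside it. The windows shown for Psmc6, Psmd6, Psmc4 and Psmb5 also reach past the GENCODE start. Among the core genes, CGGAAG was found in Psma6, with no overlap between the groups, and in Psma4 and Psmb3, which overlapped. The other members with it were Psme4, higher in Qk_KO without overlap, Psme3, lower without overlap, Psmg1, which overlapped, and Psmb11, not tested. Psmc4 and Psmc5 lacked it and were lower without overlap (log2 fold changes -0.36 and -0.10). Whether the motif goes with the fold change was not tested. TGACNNNGC was found in 5 of the 40, which are Psmb5, Psmb6, Psmc6, Psmd12 and Psmd9, against 11.5% of all windows and 13.9% of those of genes tested. CCAAT, the box bound by NF-Y, was found in 14 of 40, against 37.5% of all. No match of CGGAAG shown overlaps one of TGACNNNGC. These are matches of letters, not evidence of binding.

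Of the 5 inducible or tissue-specific core subunits, 3 were abundant enough to be tested. Psmb8, Psmb9 and Psmb10 replace Psmb5, Psmb6 and Psmb7 in the immunoproteasome of interferon-exposed and immune cells. Psmb10 was the abundant one, with 56.3 and 66.7 TPM in the Qk_KO libraries, against 56.5 and 63.3 TPM in the control libraries, and overlapped. Psmb8 had 1.57 and 4.33 TPM in the Qk_KO libraries, against 1.44 and 1.54 TPM in the control libraries, and it was Qk_KO replicate 2 that stood above the other 3 libraries. Its log2 fold change was 0.57 (95% interval -0.36 to 1.502) and 0.046 without that library. Psmb9 had 1.92 and 2.27 TPM in the Qk_KO libraries, against 0.87 and 1.35 TPM in the control libraries, with both Qk_KO values higher (log2 fold change 0.56, adjusted p = 0.193, limma, Benjamini-Hochberg), at levels where the pseudocount understates a change. Psmb9 also shares exon sequence with Tap1 on the other strand, and the strand setting of the counting is unknown. The thymus subunit Psmb11 was listed at 0.02 and 0.04 TPM in Qk_KO and at 0 in both control libraries, and the testis subunit Psma8 at 0 and 0.05 TPM in Qk_KO and 0.13 and 0.05 TPM in control. Both were below the mean of 1 TPM required for testing.

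Relative to the constitutive subunits, transcripts of Psmb8 came to 0.409% and 1.03% of Psmb5 in the Qk_KO libraries and 0.351% and 0.385% in the control libraries. Psmb9 came to 0.403% and 0.441% of Psmb6 in Qk_KO and 0.167% and 0.263% in control, and Psmb10 to 12.7% and 14.2% of Psmb7 in Qk_KO and 12.5% and 14.2% in control. Psmb8 and Psmb9 thus stayed near or below 1% of their constitutive counterparts, and Psmb10 stood above 12% of its own. Genes of the interferon response and of MHC class I presentation, whose peptides these subunits shape, were set beside them. Of 19 tested, 2 rose (1.83% of all genes tested did), 0 fell and 17 did not pass (limma, Benjamini-Hochberg). Those that rose were Bst2, a virus-restricting membrane protein, with 19.0 and 16.9 TPM in the Qk_KO libraries, against 9.0 and 8.56 TPM in the control libraries, and Ifitm3, another such protein, with 66.6 and 49.6 TPM in the Qk_KO libraries, against 23.6 and 26.6 TPM in the control libraries. The call of Bst2 was lost whichever library was left out, with an adjusted p of 0.0254 to 0.252 over the alternatives (limma), and that of Ifitm3 was lost without either control library or Qk_KO replicate 1, with 0.0261 to 0.239. Of the 19 genes tested, 10 had both Qk_KO values above both control values and 2 had them below. Over all genes tested these shares were 33.6% and 27.5%. Tap1, the peptide transporter subunit next to Psmb9, had 5.77 and 9.10 TPM in the Qk_KO libraries, against 8.43 and 8.57 TPM in the control libraries, and overlapped. The microglia markers, of cells known for immunoproteasome expression, summed to 46.5 and 39.5 TPM in Qk_KO and 91.8 and 83.7 TPM in control, opposite in direction to Psmb9, and their part was not tested.

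Activators and the inhibitor went in different directions. Psme1 and Psme2 encode the alpha and beta subunits of the interferon-inducible activator PA28, which assemble into one ring. Psme1 had 169 and 149 TPM in the Qk_KO libraries, against 137 and 126 TPM in the control libraries, and its values did not overlap (log2 fold change 0.27, adjusted p = 0.169, limma, Benjamini-Hochberg). Psme2 had 219 and 213 TPM in the Qk_KO libraries, against 216 and 253 TPM in the control libraries, and overlapped. Psme1 thus stood at 77.3% and 69.8% of Psme2 in the Qk_KO libraries, against 63.2% and 49.8% in the control libraries. The genes lie close together on chromosome 14, at 55578123 to 55581529 on the plus strand and 55587441 to 55591113 on the minus strand (GRCm38). Psme1 overlaps an exon of Emc9 on the other strand, and Psme2 has a near copy, Psme2b, listed at 14.7 and 11.6 TPM in the Qk_KO libraries, against 11.1 and 8.86 TPM in the control libraries, so reads of Psme2 may be split between them. Psme4, the nuclear activator PA200, had 37.3 and 33.2 TPM in the Qk_KO libraries, against 29.0 and 29.2 TPM in the control libraries, again without overlap and with a log2 fold change of 0.27 (95% interval -0.012 to 0.55). Psme3, the nuclear activator PA28 gamma, had 88.7 and 91.6 TPM in the Qk_KO libraries, against 92.7 and 99.1 TPM in the control libraries, and the Qk_KO values were lower by a small distance. Psmf1, which encodes the core-binding regulator PI31, had 50.6 and 47.0 TPM in the Qk_KO libraries, against 48.5 and 44.7 TPM in the control libraries, and overlapped.

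No assembly chaperone had an unadjusted p under 0.05 in limma, and their fold changes were small. Psmg1 and Psmg2 form one dimer that builds the alpha ring, and Psmg3 and Psmg4 form another. Psmg3 was the most abundant of these, with 73.4 and 79.4 TPM in the Qk_KO libraries, against 87.6 and 88.8 TPM in the control libraries, and the only one of the 4 without overlap (log2 fold change -0.21, adjusted p = 0.223, limma, Benjamini-Hochberg). Psmg4 had 66.2 and 69.6 TPM in the Qk_KO libraries, against 65.1 and 71.2 TPM in the control libraries, and Psmg1 had 42.1 and 45.4 TPM in the Qk_KO libraries, against 44.7 and 51.8 TPM in the control libraries. Psmg2 had 36.5 and 26.8 TPM in the Qk_KO libraries, against 31.5 and 33.8 TPM in the control libraries, so its Qk_KO libraries enclosed the control values. The base chaperones Psmd5, Psmd9 and Psmd10 carry lid-like names but leave the finished particle, and their groups overlapped: Psmd5 had 102 and 93.5 TPM in the Qk_KO libraries, against 85.7 and 103 TPM in the control libraries, Psmd9 had 44.2 and 46.7 TPM in the Qk_KO libraries, against 46.1 and 41.7 TPM in the control libraries and Psmd10, which encodes gankyrin, had 28.2 and 27.9 TPM in the Qk_KO libraries, against 25.3 and 28.6 TPM in the control libraries. Their log2 fold changes were all between 0.052 and 0.058, with 95% intervals from -0.25 to 0.36 at the widest, and their median was -0.028 without control replicate 1. Psmd10 is X-linked, and Qk_KO replicate 1 differed from the other libraries in sex-linked transcripts, whose part in its values was not tested.

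Proteasome-associated genes outside the name rule were taken from a list of 20 symbols, of which 17 were listed, 2 of the others being alternative symbols of listed genes and Paaf1 not analysed here. Of the 17, 0 were called in limma (3.24% of all genes tested were) and 9 had an unadjusted p under 0.05, all lower (12.6% of all genes tested were). Of these 17, 12 had both Qk_KO values below both control values while 2 had them above (27.5% and 33.6% of all genes tested), with a median log2 fold change of -0.24. The 2 above were Ubqln2, at 173 and 175 TPM in Qk_KO and 165 and 140 TPM in control, and Zfand5. Zfand5 had 60.9 and 58.1 TPM in Qk_KO and 52.9 and 53.2 TPM in control. Shfm1, Ubqln4 and Ube3c overlapped. Fbxo7, a ubiquitin ligase subunit that binds PI31, had 17.3 and 20.7 TPM in the Qk_KO libraries, against 31.7 and 38.0 TPM in the control libraries, the largest difference of the list (log2 fold change -0.84, SE 0.15, adjusted p = 0.0508, limma, Benjamini-Hochberg). Txnl1, a thioredoxin-like protein bound to the regulatory particle, had 55.9 and 53.0 TPM in the Qk_KO libraries, against 76.2 and 81.8 TPM in the control libraries (log2 fold change -0.53, adjusted p = 0.0522, limma, Benjamini-Hochberg). Over the 15 alternatives the adjusted p of Fbxo7 ranged from 0.0254 to 0.291 and that of Txnl1 from 0.0434 to 0.291 (limma), so both passed under some of them. The remaining genes of this list are named after their values were seen. Akirin2, known in human cells to bring proteasomes into the nucleus, had 65.3 and 63.9 TPM in the Qk_KO libraries, against 86.1 and 90.6 TPM in the control libraries, and the deubiquitinase Usp14 had 46.8 and 42.6 TPM in the Qk_KO libraries, against 56.8 and 69.4 TPM in the control libraries. Rad23b, a shuttle receptor that delivers ubiquitinated substrates, had 112 and 114 TPM in the Qk_KO libraries, against 133 and 149 TPM in the control libraries. None of these 3 genes overlapped between the groups. Pomp, the maturation factor of the core, had 257 and 257 TPM in the Qk_KO libraries, against 310.1 and 297 TPM in the control libraries, and Adrm1, a ubiquitin receptor of the base, had 173 and 170.4 TPM in the Qk_KO libraries, against 190.2 and 189 TPM in the control libraries. Shfm1, the small lid subunit also known as Sem1, had 712 and 788 TPM in the Qk_KO libraries, against 719.8 and 734 TPM in the control libraries, and overlapped, unlike the 8 lid genes of the Psmd series.

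**Figure D5:**
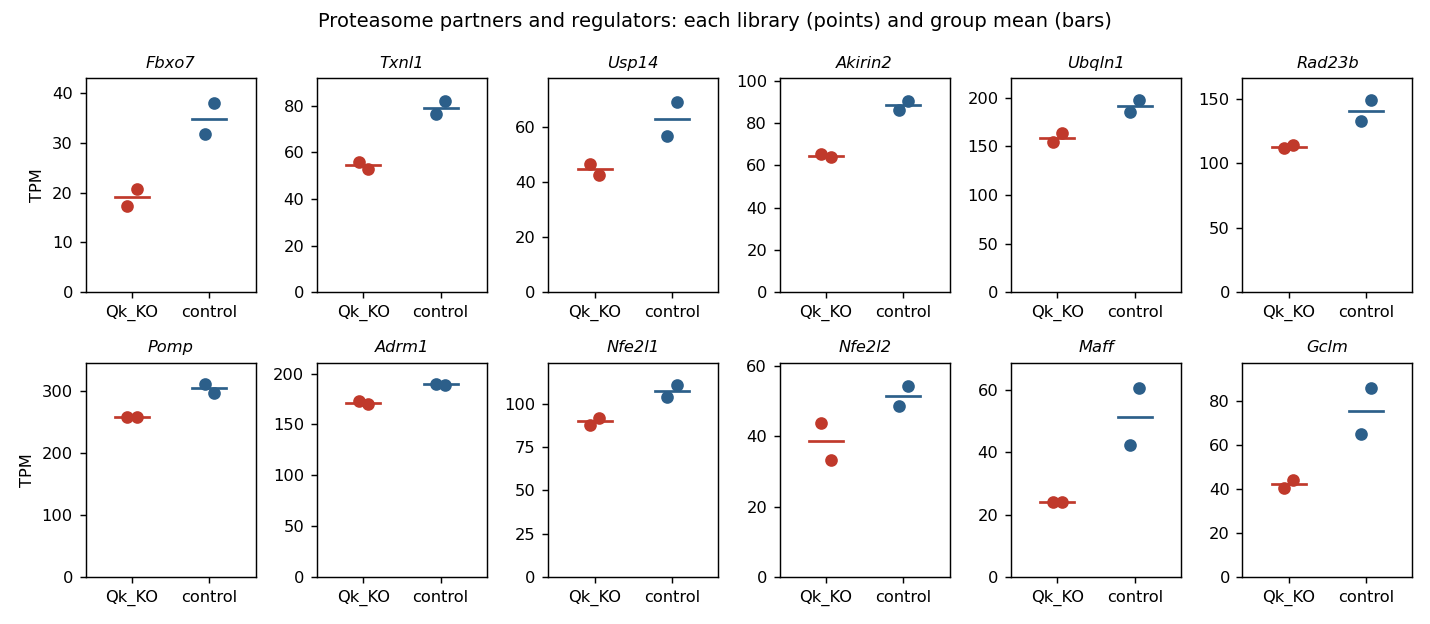
TPM (y axis, starting at 0) of 12 genes in each library, with bars at the group means. The genes come from the lists of proteasome partners, of Nfe2l1 and its pathway, and of Nfe2l2 and antioxidant genes. The panels were chosen after the values were seen, so that both Qk_KO points lie below both control points in each. Relative to control the difference is largest for Maff, at 24.0 and 24.0 TPM in Qk_KO against 42.2 and 60.5 TPM in control. It is smallest for Adrm1, at 173 and 170.4 TPM in Qk_KO against 190.2 and 189 TPM in control. Ubqln2 and Zfand5 of the partner list, which are not drawn, lay higher in Qk_KO without overlap.

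Nfe2l1, the factor that raises proteasome genes, had 87.6 and 91.8 TPM in the Qk_KO libraries, against 104 and 111 TPM in the control libraries, without overlap (log2 fold change -0.26, SE 0.09, adjusted p = 0.149, limma, Benjamini-Hochberg). Of the 11 genes in a list of Nfe2l1, its processing enzymes and its partners, 0 rose, 1 fell (1.42% of all genes tested did) and 10 did not pass (limma, Benjamini-Hochberg). Maff, a small Maf protein that pairs with Nfe2l1 and Nfe2l2, was the one that fell, to 24.0 and 24.0 TPM in Qk_KO, against 42.2 and 60.5 TPM in control (log2 fold change -1.05, adjusted p = 0.0493, limma, Benjamini-Hochberg). The call of Maff was lost whichever library was left out, with a range over the alternatives of 0.0285 to 0.241 in adjusted p (limma). Ngly1, the enzyme that strips sugars from Nfe2l1, had 15.8 and 13.6 TPM in the Qk_KO libraries, against 16.4 and 20.0 TPM in the control libraries, without overlap. Chosen after their values were seen, the protease gene Ddi2, which cleaves Nfe2l1, had 31.4 and 37.1 TPM in the Qk_KO libraries, against 32.6 and 33.1 TPM in the control libraries, and Vcp, the ATPase that extracts it from the membrane, had 529 and 552 TPM in the Qk_KO libraries, against 586 and 617 TPM in the control libraries. Activity of Nfe2l1 is set by protein cleavage and is not measured by its transcript. In a list of Nfe2l2 and antioxidant genes, 1 of 23 fell (1.42% of all genes tested did), 0 rose (1.83% did) and 22 did not pass (limma, Benjamini-Hochberg). Hmox1, which encodes a heme-degrading enzyme, was the gene that fell, to 102 and 177 TPM in Qk_KO, against 730.4 and 1025 TPM in control (adjusted p = 0.0296, limma, Benjamini-Hochberg), though it did not pass without control replicate 1 (0.0887) or 2 (0.207), in a range of 0.00559 to 0.207 over the alternatives. The next largest log2 fold change was the -0.95 of Osgin1, a stress-induced growth inhibitor (adjusted p = 0.148, limma, Benjamini-Hochberg). It had 0.26 and 0.58 TPM in the Qk_KO libraries, against 1.07 and 2.58 TPM in the control libraries, near the mean of 1 TPM required for testing. Nfe2l2 itself had 43.8 and 33.4 TPM in the Qk_KO libraries, against 48.8 and 54.3 TPM in the control libraries. This list was lower without overlap in 15 of its 23 genes and higher in 3, where 27.5% of all genes tested were lower and 33.6% higher.

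Ubiquitin is the tag that the proteasome reads. Of 6 genes in a list of ubiquitin genes and activating enzymes, 0 were called and 2 had an unadjusted p under 0.05, both lower (limma), where 3.24% of all genes tested were called and 12.6% were lower at that p. Rps27a, in which ubiquitin is made together with a ribosomal protein, had 1094 and 1073 TPM in the Qk_KO libraries, against 1447 and 1715 TPM in the control libraries, and its adjusted p of 0.0622 was the smallest of the list (limma, Benjamini-Hochberg). Ubb, a polyubiquitin gene named after its values were seen, had 4605 and 5360.4 TPM in the Qk_KO libraries, against 4594 and 3566 TPM in the control libraries, the Qk_KO pair lying above the control pair.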

How the data were processed

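The authors deposited TPM per gene, 1 table per library, with Entrez number and symbol. Per the labels' protocols, poly(A) RNA was sequenced on an Ion Proton. STAR 2.4.1d and RSEM 1.3.0 with mouse builds mm10 and GRCm38.p4 are named in the submitters' processing notes. Annotation and strand setting were not given in the sources used here, and depth is unknown. A TPM value is a share of a total, so a rise of some genes lowers others.

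All 4 libraries entered 1 fit of log2(TPM + 1). Genes averaging 1 TPM or more (13260) were tested, Qk_KO minus control, with limma 3.58.1 (lmFit, eBayes with trend; 5.57 degrees of freedom) in R 4.3.3, with two-sided p-values adjusted over all of them by Benjamini-Hochberg and a threshold of 0.05. The fit was also run on simulated data with independent noise of limma's own spread, which cannot show how it performs on these libraries. The members and lists were chosen with earlier results of these data known. Named genes were members at the extremes of each functional group by fold change or level, all inducible subunits, activators and inhibitors, and the called or most changed genes of other lists. No score over members was tested. Some genes of the lists are not reported here. Of the 147 list entries, 143 matched a listed symbol. RSEM divides reads among near copies and overlapping genes, and 11 members share exon sequence with a gene on the other strand (Psma4, Psma5, Psmb7, Psmb8, Psmb9, Psmc3, Psmd1, Psmd13, Psmd3, Psmd9 and Psme1) and 3 on the same strand (Psmb5, Psmd1 and Psmg3; GENCODE M21), which makes their values less certain. Promoter windows came from RefSeq (GRCm38.p6), and 6 motifs were searched on both strands. Other settings tried were a pseudocount of 0.1 or 0.5, all genes without a filter, a filter at a mean of 5 TPM, scaling by median ratios, quantile normalization, limma without trend or with its robust option, a replicate block, and each library omitted. Omission of 89 small RNA genes and removal of a loess trend on transcript GC content were chosen after seeing the data. Figures used matplotlib 3.10.9 in Python 3.11.15.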

Additional observations from a re-analysis of the deposited data

How the results depend on the processing

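The count of 0 members called became 1 from a mean of 5 TPM, with the replicate block and with small RNA genes left out (Psmd11 each time) and 1 with the GC trend removed (Psmc4), and was 0 under the other 11 alternatives, including each library left out. The 430 calls over all genes became 0 with no filter (4327 genes at an unadjusted p under 0.05, limma), 649 from a mean of 5 TPM, 41 without limma's trend, 799 without small RNA genes, 788 with the GC trend removed and 4 to 148 with a library left out. Qk kept its direction but not its call with no filter (-2.38, adjusted p = 0.108, limma with Benjamini-Hochberg), and ranged from -2.52 to -2.25 with a library left out.

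With the GC trend removed, medians of log2 fold changes were -0.22 for all members, -0.17 for the beta ring, -0.25 for the ATPases, -0.32 for the lid, 0.011 for activators and inhibitor and -0.20 for core assembly. Median-ratio scaling gave -0.30 for the ATPases and -0.25 for the lid, and quantile normalization -0.29 and -0.24. From a mean of 5 TPM Psmb10 alone stood for the inducible subunits, at 0.034. With a library left out, medians ranged from -0.15 to -0.12 for all members, -0.28 to -0.24 for the ATPases, -0.26 to -0.21 for the lid, -0.12 to 0.023 for the beta ring, 0.0086 to 0.12 for activators and inhibitor, -0.028 to 0.14 for base assembly and 0.046 to 0.64 for inducible subunits.

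Signs held for 34 of 46 members under all 15 alternatives. The sign turned for Psmd9 (-0.038), Psma2 (0.041) and Psmb10 (-0.12) with the GC trend removed and for Psmb7 (-0.0091) with median-ratio scaling. With a library left out, ranges crossed 0 for Psmb7 (-0.019 to 0.067), Psmb10 (-0.086 to 0.15), Psmd9 (-0.019 to 0.12), Psmd5 (-0.072 to 0.19), Psmd10 (-0.028 to 0.14), Psma4 (-0.082 to 0.0073), Psmb2 (-0.14 to 0.030), Psmb3 (-0.13 to 0.041), Psmb5 (-0.078 to 0.054), Psmg2 (-0.27 to 0.15) and Psmg4 (-0.068 to 0.060). Of other named genes, Shfm1 (-0.029 to 0.12), Ddi2 (-0.063 to 0.17) and Tap1 (-0.49 to 0.088) turned with a library left out. For these results the cause was not tested. A member whose groups do not overlap cannot turn its sign by leaving out a library.

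Replicate numbers are shared by the groups, but with 2 pairs they do not show a pairing: the deviations of same-numbered libraries correlated at 0.114 over all genes tested and 0.0268 over the members. With the replicate block 1278 genes were called, of them 1 member. The number of libraries limits the precision, and depth could not be assessed.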

Other observations

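Other letters were searched in the same promoter windows. The core of sites of nuclear respiratory factor 1, with an open middle position, occurred in 6 of 40 members (Psma2, Psma3, Psma4, Psmc4, Psmc5 and Psmd14), against 4.23% of all genes with a window and 9.44% of those tested. GGGCGG, the GC box, occurred in 22 of 40, against 35.4% and 65.6%. TGACGTCA, the full cAMP response element, occurred in 0 of 40, against 1.77% and 3.19%.

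Psmc3ip, which encodes a recombination factor named for its interaction with Psmc3 and lies outside the name rule, had 32.6 and 22.3 TPM in the Qk_KO libraries, against 28.5 and 16.7 TPM in the control libraries.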
